A study of Mus musculus with 51 samples.

Results

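Granulocyte-macrophage progenitors (GMP) and haematopoietic stem cells (HSC) of Mll-AF9 knock-in mice were compared with each other. The members are the arrays titled Mll-AF9 GMP (4 replicates) and Mll-AF9 HSC (5 replicates), which are 9 of the 51 arrays of the study. The study profiled GMP, HSC, common myeloid progenitors and common lymphoid progenitors, sorted by flow cytometry from bone marrow of mice with and without the knock-in, on Affymetrix mouse arrays. Both groups compared here carry the Mll-AF9 fusion, no treatment is named, and wild-type GMP (5 replicates) and wild-type HSC (5 replicates) served as a reference for the same step of differentiation. Total RNA was extracted from the sorted cells and labelled through 2 rounds of amplification. Each group is a bulk population defined by its sort. The labels give neither the surface markers of the gate nor the age of the mice or whether they had leukaemia, and they do not say which replicates came from separate mice. The p-values therefore rest on the variation among these arrays, some of which can be technical.

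HSC divide rarely, renew themselves and give rise to every blood lineage, whereas GMP divide quickly and give rise to granulocytes and macrophages. Passing from HSC to GMP is known for the loss of a stem cell transcription programme and the gain of the granule proteins, receptors and biosynthetic capacity of myeloid cells. A knock-in places the fusion under the control of the Mll gene itself. The Mll-AF9 fusion joins the DNA-binding part of the histone methyltransferase MLL to AF9, a subunit of transcription elongation complexes. It is known for keeping HoxA genes and Meis1 active and for causing acute myeloid leukaemia.

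Values below are log2 of the deposited array intensities, and differences are GMP minus HSC on that scale, so a positive difference means higher in GMP. A gene was called when its limma p-value, adjusted by Benjamini-Hochberg over 18193 genes, was below 0.05. A level of 4.62 was taken as background, the level below which 95% of 114 receptor and keratin-associated genes of other tissues lay. Where the dimmer group had its mean below it, a bound is given as an at-least fold, from the mean of the brighter group and the mean of the dimmer one with each replicate that lay below background set to 4.62. A log2 difference printed beside such a bound is the measured one and rests in part on signal below background, as does the order of genes by size of difference. Correlations were taken over the 10897 genes whose brighter Mll-AF9 group mean lay above background. GMP replicates correlated with each other at 0.971 to 0.988 and HSC replicates at 0.887 to 0.962, with HSC replicates 2 and 5 the least like the others. All 9 replicates had Y-linked genes at background (mean 2.45 to 2.72) and high Xist, the RNA that silences one X chromosome in female cells. Xist did not overlap between the groups, at 10.83 to 11.27 in GMP and 11.47 to 12.06 in HSC (-0.75 ± 0.14 SE, adjusted p = 0.00131), and its other probe sets above background gave -6.03 and 0.98. The 3' minus 5' difference of control probe sets, which grows as RNA is shorter, averaged 3.01 ± 0.20 (SD, n = 4) in GMP and 3.55 ± 0.43 (SD, n = 5) in HSC (exact permutation test over 126 regroupings, two-sided p = 0.0317, smallest possible p 0.00794). The controls went opposite ways, with GMP minus HSC at -1.48 for Gapdh alone (exact permutation p = 0.00794, 0.0159 adjusted over both) and 0.40 for beta-actin alone (exact permutation p = 0.143). RNA quality by this measure moved with the groups. With it as a covariate 64.6% of the calls were kept, and its part in the results was not tested further. The arrays are bulk measurements, so fewer cells of a type and less RNA per cell cannot be told apart.

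Of 18193 genes, 5287 (29.1%) differed between Mll-AF9 GMP and Mll-AF9 HSC. There were 3149 genes higher in GMP (17.3%) and 2138 higher in HSC (11.8%), with 1434 (7.88%) and 1324 (7.28%) of them past 2-fold. The shares of 17.3% and 11.8% are the ones to read beside every count of list members below. The replicates of the groups did not overlap for 4794 genes (26.4%), which included 80.8% of the genes called. The median difference over all genes was 0.104, and the median size of a called difference was 1.03. Without HSC replicates 2 and 5 together, an alternative chosen after the data were seen, 3689 genes were higher in GMP and 2798 in HSC. Leaving out single replicates gave 2249 to 3394 and 1684 to 2423 genes.

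The 15 genes that were highest in GMP relative to HSC included granule proteins and receptors of the myeloid cell surface. Hp, which encodes haptoglobin, a haemoglobin-binding protein stored in neutrophil granules, measured 11.65, 10.99, 11.45 and 11.71 in GMP and 6.39, 5.88, 3.87, 4.79 and 5.20 in HSC, a difference of 6.22 ± 0.40 (SE, adjusted p = 1.45e-07). Every GMP replicate lay far above every HSC replicate, and HSC replicates 1 and 2 were the highest of their group. Trem3, an activating receptor of myeloid cells, measured 10.55, 9.57, 10.15 and 9.69 in GMP and 5.44, 3.73, 3.85, 4.17 and 3.83 in HSC, so that it was at least 37-fold higher in GMP (adjusted p = 6.79e-08). F13a1, the coagulation factor XIII subunit made by monocytes, measured 10.90, 10.90, 11.08 and 11.20 in GMP and 6.79, 7.19, 4.11, 3.72 and 5.20 in HSC, with the difference at 5.62 ± 0.58 (SE, adjusted p = 8.82e-06). HSC replicates 3 and 4 were lowest for both Hp and F13a1, and replicate 3 and 4 levels of F13a1 lay below background. Prom1, which encodes the membrane protein prominin-1, was at least 23.6-fold higher in GMP (9.86, 9.87, 9.31 and 9.29 in GMP and 6.16, 3.99, 3.20, 2.87 and 5.07 in HSC, adjusted p = 5.85e-06). Anxa3, an annexin of neutrophils, differed by 5.30 ± 0.51 (SE, adjusted p = 4.52e-06), and Nucb2, a calcium-binding protein, was at least 17.2-fold higher (adjusted p = 7.30e-08). Fcgr3, the Fc gamma receptor by which GMP are commonly gated, measured 9.50, 9.40, 9.47 and 9.16 in GMP and 5.03, 4.41, 3.55, 4.40 and 4.22 in HSC, which is at least 25.7-fold higher in GMP (adjusted p = 3.62e-08). If the gate used it, its difference was fixed by the sort. Anxa3 and Nucb2 replicates of the groups did not overlap either. Also among the 15 with the largest differences were Dmkn, encoding dermokine (at least 14-fold), Sgms2, a sphingomyelin synthase (at least 9.83-fold), and Tmem178, an endoplasmic reticulum membrane protein (at least 10.2-fold). All 15 were called in the same direction under every alternative that kept them. Their choice as the largest called differences without overlap made this likely, and it says little about other genes.

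**Figure D1:**
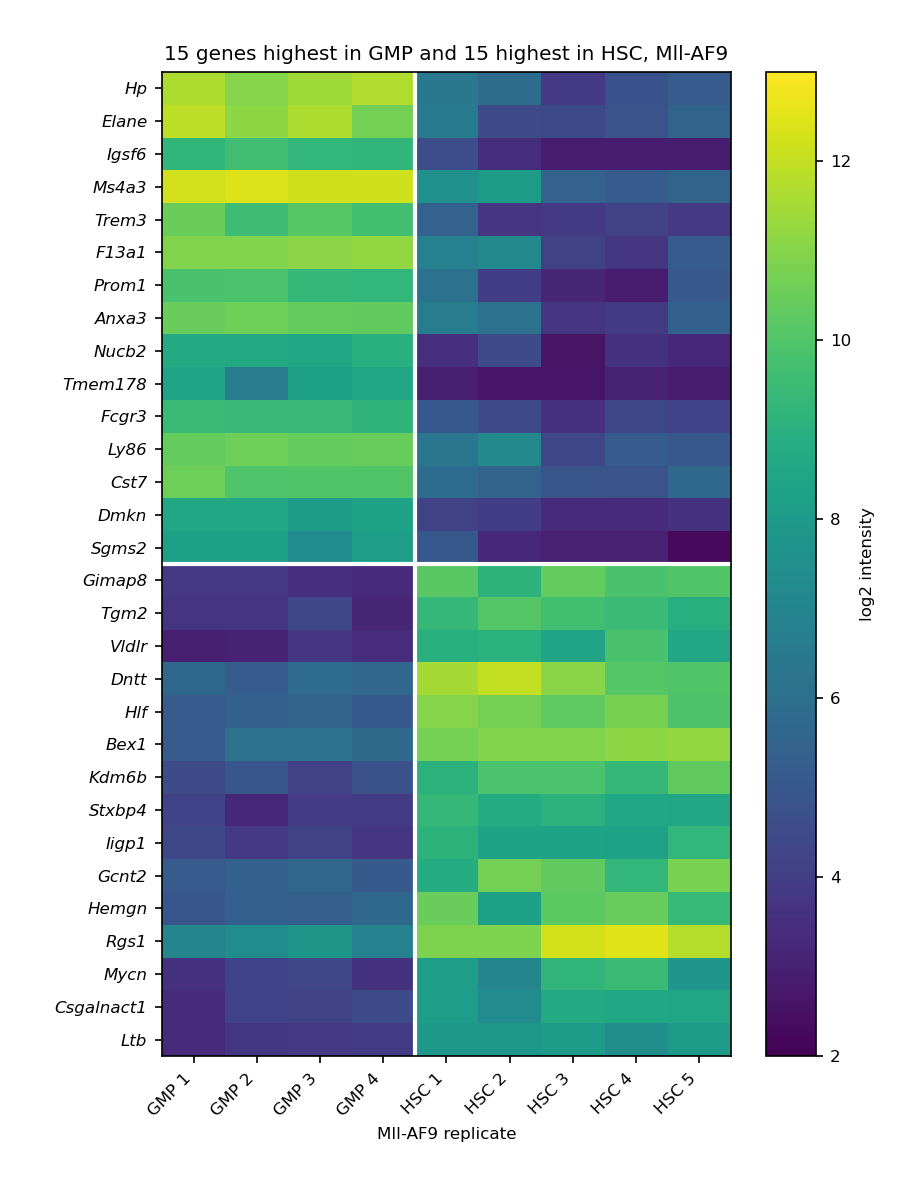
Log2 intensity (colour) of the 15 genes with the largest called difference towards GMP (upper block) and the 15 towards HSC (lower block), in each of 4 GMP and 5 HSC replicates of Mll-AF9 mice (columns). The groups do not overlap for any of these genes, which the choice of the genes required. Hp stands at 10.99 to 11.71 in GMP and 3.87 to 6.39 in HSC, and Gimap8 at 3.29 to 3.83 in GMP and 9.09 to 10.38 in HSC.

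Genes of the primary granule list were higher in GMP almost throughout. Primary granules hold the antimicrobial enzymes that promyelocytes make. The list also holds genes whose proteins are not granule contents, among them Ms4a3, Igsf6 and Alas1. Its members were chosen with earlier results of these data known. Of 16 members measured, 15 were higher in GMP, against 17.3% of all genes, and none was lower. The median difference was 2.74. Elane, neutrophil elastase, measured 11.89, 11.11, 11.63 and 10.72 in GMP and 6.55, 4.53, 4.49, 4.80 and 5.52 in HSC, a difference of 6.16 ± 0.39 (SE, adjusted p = 1.28e-07). Ms4a3, a membrane protein of early granulocytic and monocytic cells, measured 12.23, 12.42, 12.20 and 12.19 in GMP and 7.58, 8.01, 5.45, 5.20 and 5.56 in HSC and was 59.7-fold higher in GMP. Ctsg, cathepsin G, measured 13.14, 13.36, 13.18 and 13.19 in GMP and 10.12, 9.27, 6.98, 7.15 and 9.57 in HSC (4.60 ± 0.53 SE, adjusted p = 2.33e-05). The groups stayed apart for each of these genes, while HSC spread over 2 log2 units or more. Mpo, myeloperoxidase, was already at 13.79, 13.56, 13.68 and 13.61 in GMP and 11.73, 11.74, 10.01, 9.93 and 10.77 in HSC and differed by 2.82 ± 0.33 (SE, adjusted p = 2.48e-05). Prtn3, proteinase 3, differed by 2.66 ± 0.18 (SE, adjusted p = 1.88e-07), and Cst7, a cysteine protease inhibitor, by 4.79 ± 0.26 (SE, adjusted p = 4.01e-08). Igsf6, an immunoglobulin-like receptor of myeloid cells, was at least 26.5-fold higher (adjusted p = 4.01e-08). Alas1, which catalyses the first step of haem synthesis and so serves the haem enzyme myeloperoxidase, was 13.3-fold higher (3.74 ± 0.33 SE, adjusted p = 2.13e-06). The exception was Ctsc, cathepsin C, which activates these serine proteases: it measured 9.75 in GMP and 9.56 in HSC (adjusted p = 0.567). The mean level of the 16 genes was 11.38 to 11.59 in GMP and 7.89 to 8.93 in HSC.

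The 250 bases before the start site were read from RefSeq (GRCm38.p6) for the 3 called members of this list with the largest difference and a promoter in the table, to show the regulatory sequence beside the values. The motif GAGGAA, the core that the myeloid factor PU.1 binds, was searched on both strands. It was in 7 of 14 promoters of the list, in 22.7% of 14452 promoters of measured genes and in 23.1% of all 27025 promoters. Among 1157 promoters of genes called and past 2-fold higher in GMP the share was 21.8%. Elane held it once, 85 bases before the start, Igsf6 once, 39 bases before it, and Ms4a3 held none. Capitals mark the match on either strand.
Elane (chr10:79886062-79886311, plus strand): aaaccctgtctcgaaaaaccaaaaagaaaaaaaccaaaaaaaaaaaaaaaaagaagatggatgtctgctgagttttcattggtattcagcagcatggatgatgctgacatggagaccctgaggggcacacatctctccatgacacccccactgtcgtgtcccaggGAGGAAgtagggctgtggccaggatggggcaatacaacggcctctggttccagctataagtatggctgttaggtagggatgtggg
Igsf6 (chr7:121074531-121074780, minus strand): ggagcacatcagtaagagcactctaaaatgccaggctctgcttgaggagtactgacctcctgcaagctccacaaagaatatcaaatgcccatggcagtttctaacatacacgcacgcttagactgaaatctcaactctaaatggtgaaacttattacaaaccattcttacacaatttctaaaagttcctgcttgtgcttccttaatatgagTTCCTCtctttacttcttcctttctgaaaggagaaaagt
The MYB motif AACNGNC was also in 7 of the 14, against 27.6% of all promoters. The RUNX motif TGTGGT was in 5 (35.7%), against 14.2%. The C/EBP motif TTGCNNAA was in 0, against 9.6%, though it was in 7 of 12 promoters of the late neutrophil list described next (58.3%). A match is a run of letters and was not tested as a binding site.

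Later neutrophil genes behaved less evenly. These secondary and tertiary granule and calprotectin genes mark cells beyond the GMP stage. Of 13 measured, 5 were higher in GMP (Chil3, Fcnb, Cybb, Anxa1 and Mmp8) and none was lower, with a median difference of 0.86. Fcnb, a ficolin of granules, measured 7.80, 6.68, 6.88 and 7.03 in GMP and 4.45, 5.03, 4.80, 4.66 and 4.63 in HSC, with all GMP above all HSC (2.38 ± 0.24 SE, adjusted p = 7.92e-06). Chil3, a chitinase-like lectin, differed by 2.74 ± 0.66 (SE, adjusted p = 0.0065), and by 3.36 without HSC replicate 1. S100a8, a calprotectin subunit, measured 10.79, 10.11, 9.73 and 9.12 in GMP and 9.65, 8.89, 4.78, 4.28 and 9.17 in HSC and was not called (2.58 ± 0.97 SE, adjusted p = 0.0593). Ngp, neutrophilic granule protein, measured 8.29, 6.79, 6.74 and 6.88 in GMP and 10.23, 7.60, 4.81, 4.52 and 7.64 in HSC (adjusted p = 0.884), and Camp, cathelicidin, 7.44, 6.52, 6.11 and 6.51 in GMP and 7.71, 6.28, 3.59, 4.0 and 7.36 in HSC (adjusted p = 0.405). For S100a8, Ngp and Camp, HSC replicates 1, 2 and 5 were near the GMP level or above it, and replicates 3 and 4 were far below. S100a9, the partner of S100a8, showed the same split, with 8.55 in HSC replicate 1 and 2.61 in replicate 3 (adjusted p = 0.582). The mean level of the 13 genes was 7.28, 6.02, 4.47, 4.58 and 6.10 in HSC replicates 1 to 5 and 6.50 to 7.24 in GMP. Without HSC replicate 1, 7 members were higher in GMP, and with the RNA quality covariate 1 was. Mmp8 was not called without GMP replicate 1, 3 or 4 or HSC replicate 3 or 4 (limma adjusted p = 0.0745 to 0.101).

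Monocyte and macrophage genes were higher in GMP in 8 of 14 cases, against 17.3% of all genes, and never lower, with a median difference of 1.15. Csf1r, the receptor for macrophage colony-stimulating factor, measured 11.27, 11.15, 11.34 and 11.67 in GMP and 7.75, 8.21, 5.64, 6.59 and 5.16 in HSC and was 25.8-fold higher (4.69 ± 0.50 SE, adjusted p = 1.11e-05). Its HSC values were uneven, with replicates 1 and 2 highest, yet all lay below GMP. The largest differences after F13a1 and Csf1r were those of other receptors and secreted proteins. Ly86, a partner of a Toll-like receptor homologue, differed by 4.83 ± 0.44 (SE, adjusted p = 2.46e-06), Lgals3, galectin-3, by 4.19 ± 0.36 (SE, adjusted p = 1.53e-06), and Mpeg1, a pore-forming protein of macrophages, by 3.74 ± 0.26 (SE, adjusted p = 2.40e-07). Tifab, an adaptor-related protein that restrains innate signalling, was at least 11.3-fold higher (adjusted p = 1.28e-06). Ccr2, the receptor by which monocytes leave the marrow, measured 5.98 in GMP and 5.72 in HSC (adjusted p = 0.43), and Psap, prosaposin, 8.44 in GMP and 8.43 in HSC (adjusted p = 0.977). Neither was called by its brightest probe set, but 3 other probe sets of Ccr2 were higher in GMP by 1.83, 2.11 and 2.13 and a second of Psap by 1.34, each called over all probe sets. Genes of the other granulocyte types were called unevenly. Of eosinophil genes, 4 of 6 were higher in GMP, led by Siglecf, a sialic acid-binding receptor (7.91, 8.26, 7.57 and 7.77 in GMP and 4.33, 3.44, 2.61, 4.31 and 3.60 in HSC, at least 9.57-fold, adjusted p = 5.66e-07), with Prg2, major basic protein, at 1.51 ± 0.26 (SE, at least 1.63-fold, adjusted p = 6.42e-04). Of 12 mast cell and basophil genes, 1 was higher in GMP and 2 in HSC, against 17.3% and 11.8% of all genes. Leaving out HSC replicate 5 gave 2 higher in GMP. When GMP replicate 2, 3 or 4 or HSC replicate 1 or 4 was left out, 1 was higher in HSC. Hdc, histidine decarboxylase, which makes histamine, measured 9.84, 9.82, 9.62 and 9.61 in GMP and 6.42, 7.07, 3.35, 4.63 and 6.12 in HSC (4.20 ± 0.57 SE, adjusted p = 8.70e-05). Cpa3, mast cell carboxypeptidase, measured 7.33 in GMP and 6.58 in HSC and Mcpt8, a basophil protease, 8.35 in GMP and 7.35 in HSC, neither called (adjusted p = 0.197 and 0.454).

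The transcription factors that direct granulocyte and monocyte fate split. Of 15 measured, 5 were higher in GMP and 4 in HSC, against 17.3% and 11.8% of all genes, and 2 were higher in HSC with the mean of all probe sets. Cebpa, the factor required to form GMP, measured 8.56, 8.10, 8.50 and 8.60 in GMP and 5.23, 6.32, 5.50, 5.12 and 5.51 in HSC (2.90 ± 0.26 SE, adjusted p = 2.21e-06). Its relative Cebpd measured 8.84, 8.82, 9.10 and 9.46 in GMP and 4.83, 5.31, 5.10, 5.12 and 5.53 in HSC, a 14.7-fold difference (adjusted p = 5.51e-08). Irf8, which drives monocyte and dendritic fate, differed by 3.19 ± 0.22 (SE, adjusted p = 2.67e-07), Gfi1, which drives neutrophil fate, by 1.78 ± 0.39 (SE, adjusted p = 0.00352), and Nfil3, a bZIP repressor, by 2.39 ± 0.21 (SE, at least 4.79-fold, adjusted p = 1.98e-06). Spi1, which encodes PU.1, measured 6.99, 6.75, 6.90 and 7.28 in GMP and 6.65, 6.79, 7.46, 7.25 and 7.61 in HSC: the groups overlapped and it was not called (-0.17 ± 0.25 SE, adjusted p = 0.641). Cebpb measured 7.28 in GMP and 6.65 in HSC and was not called either (adjusted p = 0.359). Zeb2, a zinc-finger repressor, was lower in GMP by its brightest probe set (-2.0 ± 0.24 SE, adjusted p = 2.71e-05), but 3 other probe sets above background were higher in GMP by 0.82, 1.82 and 2.02, so its direction depends on the probe set.

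Receptors for myeloid growth factors were divided evenly, with 6 of 16 higher in GMP and 6 higher in HSC, against 17.3% and 11.8% of all genes. Higher in GMP were Csf2rb, the shared beta chain of the GM-CSF, interleukin-3 and interleukin-5 receptors (9.26, 8.95, 9.02 and 9.34 in GMP and 6.58, 5.69, 6.25, 7.57 and 6.12 in HSC, 2.70 ± 0.31 SE, adjusted p = 2.48e-05), and Csf2ra, the GM-CSF receptor alpha chain (1.70 ± 0.26 SE, adjusted p = 2.73e-04). Il6ra, the interleukin-6 receptor, was higher too (1.67 ± 0.21 SE, adjusted p = 4.63e-05). Higher in HSC were Il18r1, an interleukin-18 receptor chain (4.78, 4.79, 4.73 and 4.49 in GMP and 8.93, 7.87, 9.25, 9.06 and 8.20 in HSC, -3.97 ± 0.29 SE, adjusted p = 3.78e-07), and Il1r1, the interleukin-1 receptor (4.75, 5.39, 5.40 and 5.04 in GMP and 7.90, 8.14, 7.88, 7.99 and 7.85 in HSC, -2.81 ± 0.21 SE, adjusted p = 5.47e-07). For both interleukin receptors all GMP replicates lay below all HSC replicates. Tek, the angiopoietin receptor of stem cells, was at least 2.32-fold higher in HSC (adjusted p = 2.47e-06). Flt3, the receptor of multipotent progenitors, measured 6.34, 6.25, 6.37 and 6.87 in GMP and 9.72, 9.88, 8.79, 8.63 and 9.25 in HSC (-2.79 ± 0.28 SE, adjusted p = 5.60e-06). Kit, the stem cell factor receptor, measured 8.23, 7.25, 8.18 and 7.96 in GMP and 9.54, 8.40, 9.09, 9.11 and 8.04 in HSC, with the lowest HSC replicate below the highest GMP replicate (-0.93 ± 0.31 SE, adjusted p = 0.0353). Kit was not called without GMP replicate 2, 3 or 4 or HSC replicate 1, 3 or 4 (limma adjusted p = 0.054 to 0.122). Csf3r, the G-CSF receptor, measured 7.87 in GMP and 7.50 in HSC (adjusted p = 0.192).

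The genes highest in HSC relative to GMP were of more varied function. Gimap8, an immune-associated GTPase, measured 3.82, 3.83, 3.53 and 3.29 in GMP and 10.17, 9.09, 10.38, 9.85 and 10 in HSC and was at least 38.8-fold higher in HSC (-6.28 ± 0.27 SE, adjusted p = 1.58e-08). Tgm2, a protein cross-linking transglutaminase, measured 3.66, 3.68, 4.39 and 3.17 in GMP and 9.33, 10.10, 9.66, 9.49 and 8.95 in HSC (at least 29.6-fold, adjusted p = 3.45e-08). Vldlr, a lipoprotein receptor, measured 2.95, 3.08, 3.75 and 3.39 in GMP and 8.93, 9.01, 8.41, 9.84 and 8.57 in HSC (at least 20.2-fold, adjusted p = 3.62e-08). For all 3 genes every GMP replicate was below background and every HSC replicate above 8. Bex1, a small adaptor protein, measured 5.15, 6.12, 6.09 and 5.81 in GMP and 10.68, 10.90, 10.91, 11.14 and 11.22 in HSC (-5.18 ± 0.23 SE, adjusted p = 1.58e-08). Kdm6b, a demethylase of histone H3 lysine 27, was at least 31.6-fold higher (-5.12 ± 0.27 SE, adjusted p = 3.74e-08), and its other probe sets gave -3.01 and -0.84. Rgs1, a regulator of G-protein signalling, measured 6.99, 7.35, 7.83 and 6.82 in GMP and 10.86, 10.89, 12.28, 12.46 and 11.76 in HSC (-4.40 ± 0.33 SE, adjusted p = 5.66e-07). None of these genes had overlapping groups. Hemgn, a nuclear protein of haematopoietic cells, differed by -4.43 ± 0.40 (SE, adjusted p = 2.23e-06), with HSC replicate 2 the lowest of its group at 8.26. Gcnt2, a branching enzyme of blood group I antigen, differed by -4.65 ± 0.37 (SE, adjusted p = 7.83e-07), Csgalnact1, an enzyme of chondroitin sulfate synthesis, by -4.21 ± 0.32 (SE, at least 12.5-fold, adjusted p = 5.75e-07), and Stxbp4, a syntaxin-binding protein, by -4.98 ± 0.25 (SE, at least 18.6-fold, adjusted p = 3.62e-08). Ltb, lymphotoxin beta, was at least 9.36-fold higher (adjusted p = 3.62e-08). All 15 genes highest in HSC were called under every alternative that kept them, as were the 15 of GMP, and the same choice made this likely. For Mycn, described below, another probe set went the other way.

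Stem cell transcription factors were lower in GMP as a group: of 27 measured, 23 were higher in HSC, against 11.8% of all genes, and none was higher in GMP. Their median difference was -1.77. Hlf, a bZIP factor of long-term stem cells, measured 5.15, 5.39, 5.59 and 5.12 in GMP and 11.00, 10.71, 10.28, 10.73 and 9.93 in HSC, a 37.2-fold difference (-5.22 ± 0.24 SE, adjusted p = 1.80e-08). Mecom, which encodes EVI1, measured 6.72, 7.86, 7.40 and 7.52 in GMP and 10.63, 10.21, 10.48, 10.57 and 10.11 in HSC (-3.02 ± 0.23 SE, adjusted p = 5.66e-07), and Meis1, the Hox cofactor, 7.90, 8.07, 8.03 and 8.49 in GMP and 10.86, 10.41, 10.96, 11.32 and 10.04 in HSC (-2.60 ± 0.24 SE, adjusted p = 3.28e-06). Neither gene came near background in GMP: their GMP replicates lay at 6.72 to 7.86 and at 7.90 to 8.49. Gata2, a zinc-finger factor of stem and mast cells, differed by -2.23 ± 0.22 (SE, adjusted p = 5.59e-06), Tal1, its partner in stem cell complexes, by -2.85 ± 0.23 (SE, adjusted p = 9.89e-07), and Nkx2-3, a homeobox factor, by -2.29 ± 0.27 (SE, adjusted p = 3.0e-05). Zfp521, a zinc-finger co-repressor, was at least 4.8-fold higher in HSC (adjusted p = 1.04e-06). Mycn, a Myc family member of stem cells, measured 3.58, 4.22, 4.34 and 3.59 in GMP and 8.15, 7.0, 9.23, 9.50 and 7.78 in HSC by its brightest probe set (-4.40 ± 0.43 SE, at least 13.1-fold, adjusted p = 5.07e-06), whereas a second probe set above background gave 0.58 and was not called. Members that were not called lay near or above 0. Not called were Lyl1 (0.67), Fli1 (0.36), Hoxb4 (0.06) and Runx1 (-0.14), the last a core factor of all blood progenitors at 8.23 in GMP and 8.37 in HSC. A second Fli1 probe set gave -2.11. Of 5 other Runx1 probe sets above background 2 were called higher in HSC (-2.73 and -1.31) and the others ran from -0.11 to 0.64, so its difference depends on the probe set. Without GMP replicate 2 or HSC replicate 2 or 5, 1 was higher in GMP. The count of 23 was 20 to 22 when any 1 replicate was left out, 22 without HSC replicates 2 and 5, and 17 with the RNA quality covariate.

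**Figure D2:**
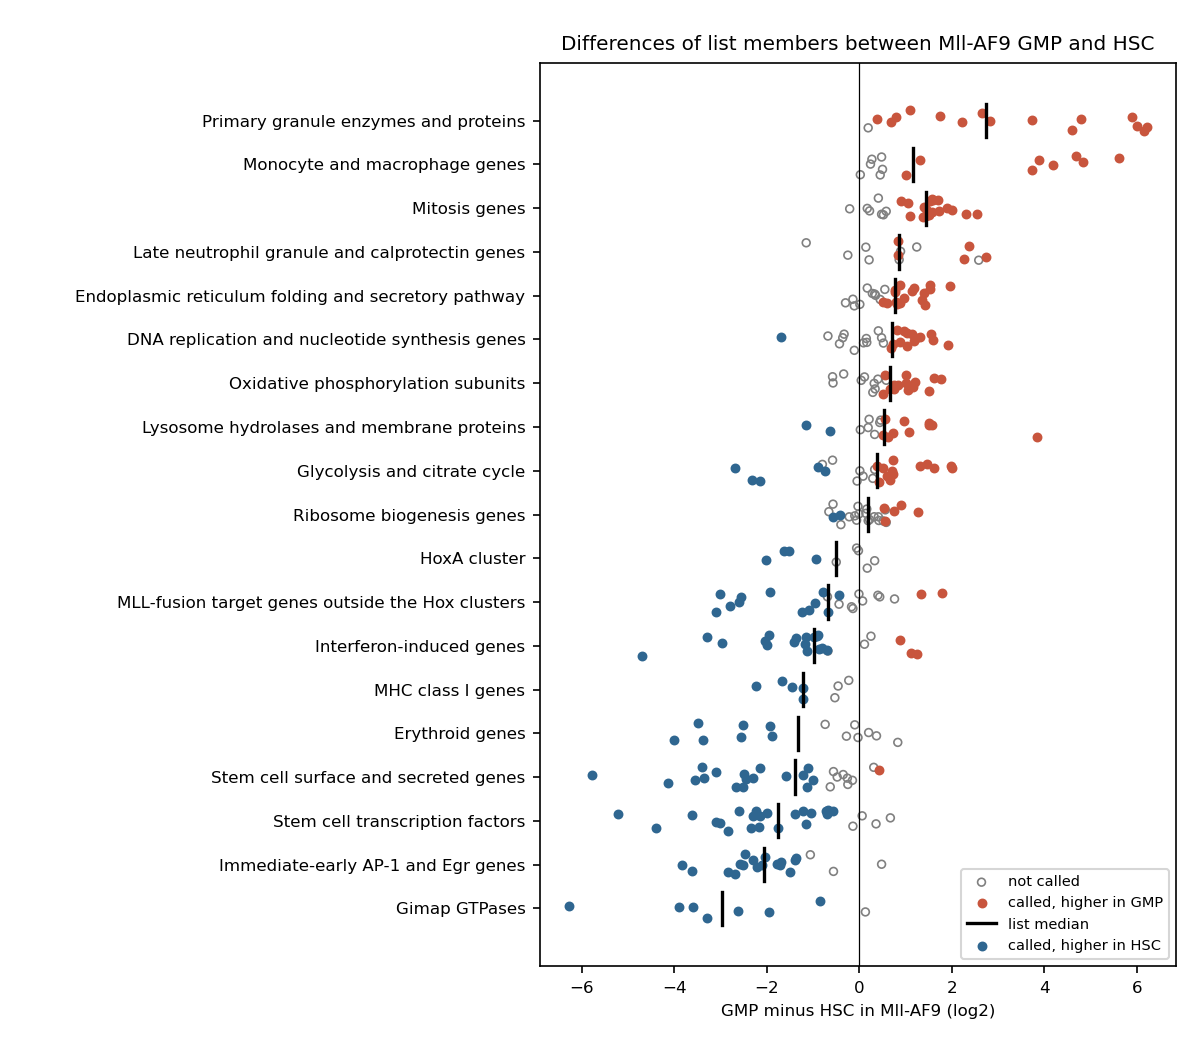
GMP minus HSC difference in Mll-AF9 mice (log2, horizontal axis) of each measured gene of 19 lists. Filled points were called by limma (adjusted p below 0.05; red, higher in GMP; blue, higher in HSC), open points were not, and vertical bars are list medians. Medians run from 2.74 for primary granule genes to -2.96 for Gimap GTPases.

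Of 16 surface proteins by which these populations are commonly separated, 10 were higher in HSC and 3 in GMP, with a median difference of -0.89. Where the sort used one of them, its difference was fixed by the gate. Procr, the endothelial protein C receptor of stem cells, measured 5.09, 4.95, 5.12 and 5.12 in GMP and 8.12, 7.36, 8.84, 9.26 and 8.75 in HSC (-3.40 ± 0.32 SE, adjusted p = 3.83e-06). Slamf1, the SLAM receptor of long-term stem cells, was dim, at least 1.79-fold higher in HSC (adjusted p = 5.68e-04). Cd48, a SLAM family member commonly used to exclude cells from stem cell gates, measured 9.0, 9.33, 8.72 and 9.12 in GMP and 7.76, 6.36, 7.37, 6.81 and 7.74 in HSC and was higher in GMP (1.83 ± 0.29 SE, adjusted p = 3.19e-04). Cd34 measured 9.15, 8.15, 9.21 and 9.40 in GMP and 10.10, 9.84, 9.62, 10.17 and 9.42 in HSC, a difference of -0.85 ± 0.25 (SE, adjusted p = 0.0212). Cd34 was not called without GMP replicate 2 or HSC replicate 4 (limma adjusted p = 0.0547 to 0.0637). Without GMP replicate 2 or without HSC replicate 4, 7 of the 16 were higher in HSC, and with the RNA quality covariate 7 were. A wider list of stem cell surface and secreted genes had 17 of 26 higher in HSC and 1 higher in GMP (median -1.40). It included Esam, an endothelial adhesion molecule (at least 5.05-fold, adjusted p = 4.03e-06), Fgd5, a guanine exchange factor (at least 3.06-fold, adjusted p = 2.35e-07), Vwf, von Willebrand factor (-2.14 ± 0.31 SE, adjusted p = 1.47e-04), and Robo4, a guidance receptor (at least 1.48-fold, adjusted p = 0.00851). Ifitm1, an interferon-induced membrane protein, measured 8.74, 9.17, 8.49 and 8.53 in GMP and 10.78, 11.02, 11.33, 11.53 and 11.22 in HSC (-2.45 ± 0.19 SE, adjusted p = 7.83e-07). The single member higher in GMP, Clca1, was below background in both groups (2.85 in GMP and 2.42 in HSC). Leaving out HSC replicate 3 gave 2 higher in GMP.

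HoxA genes, the best known targets of MLL fusions, were lower in GMP where they differed. Of 9 measured, 4 were higher in HSC and none in GMP, with a median of -0.50. Hoxa9 measured 10.38, 10.95, 10.79 and 11.10 in GMP and 12.83, 12.64, 13.16, 12.92 and 12.56 in HSC, a 4.05-fold difference (-2.02 ± 0.16 SE, adjusted p = 6.75e-07). Even the lowest GMP replicate stood above 10. Hoxa5 measured 7.34, 7.64, 7.64 and 7.16 in GMP and 9.10, 9.57, 9.01, 8.78 and 8.87 in HSC (-1.62 ± 0.21 SE, adjusted p = 6.94e-05). Hoxa10 measured 4.08, 4.51, 4.04 and 4.32 in GMP and 6.25, 5.80, 6.03, 6.23 and 4.49 in HSC, and HSC replicate 5 fell among the GMP replicates (-1.52 ± 0.32 SE, at least 2.2-fold, adjusted p = 0.00242). Hoxa7 measured 6.12 in GMP and 6.62 in HSC, its replicates did not overlap, and it was not called (adjusted p = 0.0646). Of 9 HoxB genes, Hoxb5 alone was called and it lay below background in both groups (2.97 in GMP and 3.64 in HSC). Hoxb4 measured 6.10 in GMP and 6.04 in HSC (adjusted p = 0.927), and Hoxb3 4.69 in GMP and 5.26 in HSC (adjusted p = 0.175). Hoxb5 was not called without GMP replicate 1, 3 or 4 or HSC replicate 3, 4 or 5 (limma adjusted p = 0.0581 to 0.11). Of 23 further genes described as MLL-fusion targets, 12 were higher in HSC and 2 in GMP (median -0.67). Mef2c, a MADS-box factor of lymphoid and leukaemic cells, differed by -1.93 ± 0.22 (SE, adjusted p = 1.73e-05), Eya1, a transcriptional phosphatase, by -2.56 ± 0.31 (SE, at least 2.56-fold, adjusted p = 3.19e-05), and Skida1, a nuclear protein of the SKI and DACH family, by -1.25 ± 0.29 (SE, adjusted p = 0.00548). Cpeb2, a translation regulator, was higher in GMP (1.34 ± 0.37 SE, at least 1.43-fold, adjusted p = 0.0131). Jmjd1c, a demethylase-like protein that leukaemic cells need, measured 8.90 in GMP and 8.91 in HSC (adjusted p = 0.974) by its brightest probe set. One other probe set gave -0.08, and another gave -4.18 (limma adjusted p = 6.69e-07 over all probe sets) with GMP below background.

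Both genes joined in the fusion were lower in GMP. Mllt3, which encodes AF9, measured 5.33, 4.99, 4.01 and 5.09 in GMP and 7.89, 8.46, 7.68, 7.90 and 7.96 in HSC, an 8.71-fold difference (-3.12 ± 0.28 SE, adjusted p = 2.15e-06), and its 2 other probe sets above background gave -2.29 and -1.21. Kmt2a, which encodes MLL, measured 6.50, 6.11, 6.37 and 6.22 in GMP and 6.79, 8.50, 8.05, 7.21 and 7.08 in HSC (-1.23 ± 0.32 SE, adjusted p = 0.0102), and a second probe set gave -1.92. Wild-type mice showed differences of -2.40 and -1.27 for the same genes. Which of these probes can read the fusion transcript was not analysed here. Of 11 genes of this complex 4 were higher in HSC, including Cdk9, the kinase of elongation factor P-TEFb (-1.40 ± 0.28 SE, adjusted p = 0.00182), and 2 were higher in GMP, Ell, an elongation factor (1.25 ± 0.23 SE, adjusted p = 0.00108), and Aff1, a scaffold of the super elongation complex (0.98 ± 0.26 SE, adjusted p = 0.0116). Dot1l, the histone H3 lysine 79 methyltransferase recruited by AF9, was lower in GMP by its brightest probe set (-1.08 ± 0.22 SE, adjusted p = 0.00186) and higher by 0.92 by a second (limma adjusted p = 0.00474 over all probe sets).

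Immediate-early genes, which cells switch on within minutes of a stimulus, were lower in GMP in 17 of 20 cases and higher in none. Their median difference was -2.06. Nr4a1, an orphan nuclear receptor, measured 5.74, 4.96, 7.53 and 6.34 in GMP and 9.06, 9.95, 10.16, 10.17 and 10.51 in HSC (-3.83 ± 0.42 SE, adjusted p = 1.59e-05). Egr1, a zinc-finger factor, measured 9.78, 8.11, 8.46 and 9.38 in GMP and 12.04, 12.07, 13.02, 13.08 and 12.58 in HSC (-3.62 ± 0.32 SE, adjusted p = 1.98e-06). Fos and Jun, the subunits of AP-1, differed by -1.79 ± 0.16 (SE, adjusted p = 2.16e-06) and -2.59 ± 0.23 (SE, adjusted p = 2.23e-06), Junb by -2.10 ± 0.32 (SE, adjusted p = 2.52e-04), and Zfp36, an RNA-destabilising protein, by -2.21 ± 0.27 (SE, adjusted p = 3.56e-05). Klf6, a Kruppel-like factor, measured 7.51, 7.36, 7.81 and 7.60 in GMP and 9.46, 10.48, 10.95, 11.04 and 10.13 in HSC (-2.84 ± 0.28 SE, adjusted p = 5.96e-06). Atf3, a stress-induced factor, was not called (0.48, adjusted p = 0.543), nor was Klf4 (-1.06, adjusted p = 0.151). Mean levels were 7.07 to 7.56 in GMP, and in HSC they were 8.64 and 8.77 in replicates 1 and 2 and 9.63 to 10.05 in replicates 3 to 5. No GMP mean reached the lowest HSC mean. In wild-type mice 17 of the 20 were also higher in HSC, with a median of -2.20. The cyclic AMP response element TGACGTCA was in 2 of 17 promoters of these genes (11.8%, against 1.6% of all). The AP-1 motif TGANTCA was in 0 of them, against 6.9% of all, and the CArG box of serum response factor in 1 (5.9%, against 1.4%).

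Interferon-induced genes were lower in GMP in 17 of 23 cases and higher in 3, against 11.8% and 17.3% of all genes, with a median difference of -0.99. Iigp1, an interferon-induced GTPase, measured 4.40, 3.81, 4.12 and 3.65 in GMP and 9.13, 8.33, 8.40, 8.31 and 9.27 in HSC and was at least 16.8-fold higher in HSC (adjusted p = 4.88e-08). Rsad2, which encodes the antiviral enzyme viperin, measured 5.60, 6.39, 6.39 and 5.58 in GMP and 9.17, 10.05, 9.24, 9.16 and 8.80 in HSC (-3.30 ± 0.28 SE, adjusted p = 1.50e-06). Oasl2, of the oligoadenylate synthetase family, measured 4.52, 3.80, 3.49 and 4.57 in GMP and 7.01, 6.98, 7.24, 7.40 and 6.62 in HSC (at least 5.4-fold, adjusted p = 2.21e-06), and Ifit1, a sensor of viral RNA, was at least 2.58-fold higher (adjusted p = 2.42e-04). All but Rsad2 were below background in every GMP replicate, and each of them was above it in every HSC replicate. Gbp2, a guanylate-binding protein, differed by -2.0 ± 0.20 (SE, adjusted p = 6.71e-06), and Usp18, which removes the ubiquitin-like modifier ISG15, by -1.96 ± 0.33 (SE, at least 2.86-fold, adjusted p = 4.99e-04). Irf7, which amplifies the interferon response, differed by -0.87 ± 0.27 (SE, adjusted p = 0.0268). The 3 genes higher in GMP were Gbp3 (1.24 ± 0.25 SE, adjusted p = 0.00178), the immunoproteasome subunit Psmb8 (1.11 ± 0.26 SE, adjusted p = 0.00603) and the virus-tethering protein Bst2 (0.88 ± 0.25 SE, adjusted p = 0.018). The count of 17 was 12 without GMP replicate 2, 13 without GMP replicate 3, 12 to 16 over all single omissions, and 10 with the RNA quality covariate. Irf7 was not called without GMP replicate 2, 3 or 4 (limma adjusted p = 0.051 to 0.0859). Bst2 was not called without GMP replicate 3 or 4 (limma adjusted p = 0.0632 to 0.0686).

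The interferon-stimulated response element, a pair of GAAA runs 2 bases apart to which IRF and STAT complexes bind, was in 10 of 18 RefSeq promoters of this list on either strand (55.6%), in 2.6% of those of measured genes and in 3.0% of all. Rsad2 held it once, 120 bases before the start, Ifit1 held 2, at 104 and 85 bases, and Oasl2, the other of the 3 chosen by size of difference, held none. Both are shown with the element in capitals.
Rsad2 (chr12:26456453-26456702, minus strand): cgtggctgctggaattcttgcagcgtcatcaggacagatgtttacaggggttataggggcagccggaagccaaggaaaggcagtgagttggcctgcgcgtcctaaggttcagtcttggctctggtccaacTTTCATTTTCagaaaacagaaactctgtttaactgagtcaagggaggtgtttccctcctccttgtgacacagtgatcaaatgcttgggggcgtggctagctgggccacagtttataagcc
Ifit1 (chr19:34640639-34640888, plus strand): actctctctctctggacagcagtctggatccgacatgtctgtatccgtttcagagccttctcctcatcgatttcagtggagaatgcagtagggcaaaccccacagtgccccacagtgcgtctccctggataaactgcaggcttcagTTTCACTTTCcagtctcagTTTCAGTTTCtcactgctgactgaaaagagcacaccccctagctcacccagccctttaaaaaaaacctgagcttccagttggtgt
These are descriptions of the letters in 250 bases, with no test of binding.

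Antigen presentation and Gimap genes were also higher in HSC where they were called. Of 8 class I genes 5 were higher in HSC and none in GMP (median -1.21). H2-K1, a classical heavy chain, measured 10.97, 9.31, 10.51 and 10.86 in GMP and 12.59, 12.52, 12.71, 12.65 and 12.77 in HSC (-2.23 ± 0.26 SE, adjusted p = 2.25e-05), with GMP replicate 2 lowest of all. H2-D1 differed by -1.67 ± 0.21 (SE, adjusted p = 4.87e-05). B2m, their light chain, measured 11.45 in GMP and 11.90 in HSC and was not called by its brightest probe set (adjusted p = 0.0871). A second probe set gave -1.88 (limma adjusted p = 1.45e-05 over all probe sets), and the brightest gave -0.64 without HSC replicate 2 (limma adjusted p = 0.00214). Probe sets of class I heavy chains can share sequence, so H2-K1 and H2-D1 are not independent. Of 9 class II genes 2 were higher in HSC, against 11.8% of all genes, and none in GMP. These were H2-Ob (-2.24 ± 0.28 SE, adjusted p = 4.29e-05) and H2-Eb1 (-1.24 ± 0.24 SE, at least 2.05-fold, adjusted p = 0.0013). H2-Aa (7.55 in GMP and 7.87 in HSC), H2-Ab1 (5.98 in GMP and 6.21 in HSC) and Cd74 (5.33 in GMP and 5.37 in HSC) were not called. When GMP replicate 2 was left out, 1 was higher in GMP. Gimap GTPases, which regulate survival of lymphocytes, were higher in HSC in 7 of 8 cases, with a median of -2.96. Gimap6 measured 3.79, 3.66, 4.06 and 4.51 in GMP and 7.97, 7.68, 8.06, 7.88 and 8.0 in HSC (at least 9.84-fold, adjusted p = 4.40e-08), Gimap5 was at least 5.76-fold higher (adjusted p = 6.97e-06), and Gimap1 at least 8.58-fold (adjusted p = 1.58e-07). Gimap3 was the exception at 5.14 in GMP and 5.01 in HSC (adjusted p = 0.639). The count stayed at 7 when any single replicate was left out and with the RNA quality covariate.

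Mitosis genes were higher in GMP in 18 of 25 cases, against 17.3% of all genes, and lower in none. The median difference was 1.43. Ube2c, the ubiquitin-conjugating enzyme of the anaphase-promoting complex, measured 8.70, 8.40, 8.95 and 8.52 in GMP and 6.95, 5.30, 6.09, 5.17 and 7.02 in HSC (2.54 ± 0.37 SE, adjusted p = 1.63e-04). Birc5, which encodes survivin, measured 8.89, 8.36, 8.82 and 8.44 in GMP and 6.39, 7.15, 5.45, 5.85 and 6.73 in HSC (2.31 ± 0.31 SE, adjusted p = 8.83e-05). Cdk1, the mitotic kinase, measured 8.90, 9.03, 9.04 and 8.99 in GMP and 7.91, 7.29, 6.26, 6.54 and 8.41 in HSC (1.71 ± 0.37 SE, adjusted p = 0.00299). GMP replicates lay close together for each of these genes, and HSC replicate 5 was nearest to them for Ube2c and Cdk1. Tpx2, a spindle assembly factor, differed by 1.89 ± 0.35 (SE, adjusted p = 9.67e-04), and Aurkb, a kinase of chromosome segregation, by 1.73 ± 0.45 (SE, adjusted p = 0.0104). Top2a, topoisomerase II alpha, differed by 1.10 ± 0.22 (SE, adjusted p = 0.00195) and Cenpe, a kinetochore motor, by 2.01 ± 0.41 (SE, adjusted p = 0.00211), each with a dimmer probe set at -0.11 and -1.11 that was not called. Mki67, the proliferation marker Ki-67, measured 11.01, 10.97, 11.05 and 11.18 in GMP and 11.08, 11.72, 10.38, 10.12 and 11.11 in HSC, with the groups overlapping (adjusted p = 0.659), and Cdc20, an activator of the anaphase-promoting complex, 10.57 in GMP and 10.35 in HSC (adjusted p = 0.686). Plk1, a polo-like kinase, measured 5.75 in GMP and 5.96 in HSC (adjusted p = 0.697). Mean levels of the 25 genes were 8.49 to 8.70 in GMP and 7.93, 7.24, 6.82, 6.60 and 8.16 in HSC replicates 1 to 5. Single omissions left 13 to 19 members called, and the count was 13 with the mean of all probe sets and 21 without HSC replicates 2 and 5.

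CCAAT, the motif of NF-Y, which is known for its place in cell cycle promoters, was in 19 of 21 RefSeq promoters of the mitosis list on either strand (90.5%), in 35.7% of those of measured genes and in 34.5% of all. Ube2c held 6, 57 to 228 bases before its start, of which those at 183 and 186 bases overlap as one palindrome, Cenpe held 1, at 12 bases, and Birc5 held none. The replication list held it in 13 of 22 (59.1%). Lists outside the cell cycle held it often too: 6 of 6 promoters of class I genes, 5 of 6 of class II genes and 16 of 23 of secretory pathway genes (69.6%). Over all lists the share ran from 7.1% to 100%.
Ube2c (chr2:164769679-164769928, plus strand): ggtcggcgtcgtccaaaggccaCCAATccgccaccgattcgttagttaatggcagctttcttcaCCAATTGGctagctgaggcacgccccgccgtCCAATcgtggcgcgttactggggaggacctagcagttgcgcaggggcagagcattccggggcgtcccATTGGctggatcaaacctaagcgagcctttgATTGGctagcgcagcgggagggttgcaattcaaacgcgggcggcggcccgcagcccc
Cenpe (chr3:135212313-135212562, plus strand): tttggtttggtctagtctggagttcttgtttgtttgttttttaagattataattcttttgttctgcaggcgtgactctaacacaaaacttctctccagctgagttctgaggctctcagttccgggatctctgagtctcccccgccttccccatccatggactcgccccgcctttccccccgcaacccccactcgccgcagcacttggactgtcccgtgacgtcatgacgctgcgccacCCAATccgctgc
The cell cycle homology region, TTTGAA, was in 7 of the 21 (33.3%) and in 16.3% of all promoters. In all, 11 motifs were searched on both strands in each list, and those of erythroid and immediate-early genes are given with these genes.

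Replication genes were higher in GMP in 14 of 26 cases and higher in HSC in 1, with a median of 0.71. Prim1, the primase subunit, differed by 1.91 ± 0.26 (SE, adjusted p = 9.60e-05), Tk1, thymidine kinase, by 1.59 ± 0.44 (SE, adjusted p = 0.0144), Gins2, of the replicative helicase, by 1.55 ± 0.21 (SE, adjusted p = 9.16e-05), and Pcna, the sliding clamp, by 0.69 ± 0.18 (SE, adjusted p = 0.0114). Mcm5, a helicase subunit, was higher in HSC by its brightest probe set (9.10, 9.14, 9.13 and 9.60 in GMP and 11.03, 10.58, 10.66, 10.85 and 11.60 in HSC, -1.70 ± 0.21 SE, adjusted p = 3.51e-05), whereas its other probe sets gave -0.09 and 0.90 (limma adjusted p = 0.887 and 0.0444 over all probe sets). Its partner Mcm2 measured 10.26 in GMP and 9.78 in HSC (adjusted p = 0.117). Single omissions left 9 to 15 of the 26 higher in GMP: 9 without GMP replicate 1.

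Genes that hold or license entry into the cell cycle were called in both directions. Of 12 CDK inhibitors and D cyclins 5 were higher in HSC and 2 in GMP, against 11.8% and 17.3% of all genes, so the GMP count was near the share of all genes. Without GMP replicate 3 or 4, 0 were higher in GMP. Leaving out GMP replicate 1 or HSC replicate 2, 3 or 4 gave 1 higher in GMP. Cdkn1c, which encodes p57, the inhibitor tied to stem cell quiescence, measured 3.60, 3.68, 3.65 and 3.58 in GMP and 5.93, 6.38, 6.38, 6.64 and 5.71 in HSC (at least 3.01-fold, adjusted p = 1.12e-06). Cdkn1a measured 8.47, 7.91, 8.76 and 8.52 in GMP and 7.44, 9.14, 8.47, 8.45 and 8.29 in HSC (adjusted p = 0.902) and Cdkn1b 6.70 in GMP and 6.50 in HSC (adjusted p = 0.564), neither called. The cyclins Ccnd3 (-1.23 ± 0.24 SE, adjusted p = 0.00134) and Ccnd2 (-1.15 ± 0.26 SE, adjusted p = 0.00373) were higher in HSC, as was their kinase Cdk6 (-0.95 ± 0.15 SE, adjusted p = 2.59e-04). Other probe sets above background ran from -1.59 to 0.61 for Ccnd2 and gave -0.05 and 0.46 for Cdk6.

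**Figure D3:**
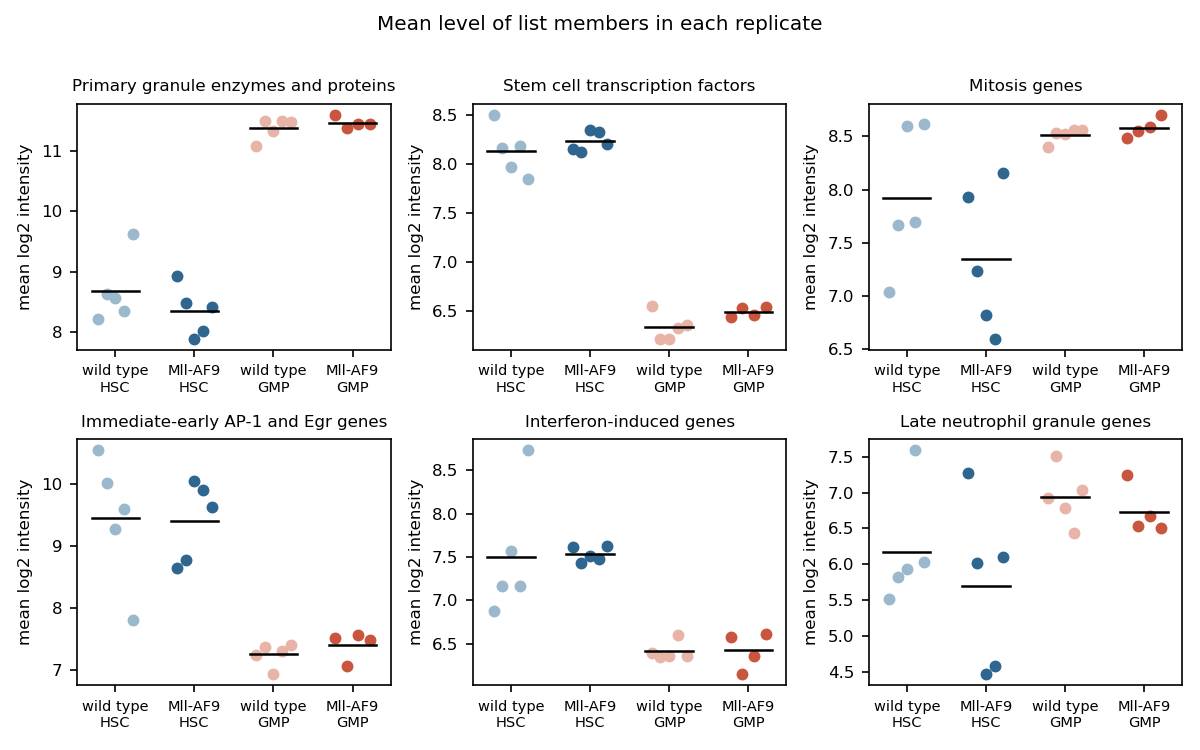
Mean log2 intensity of the members of 6 lists (vertical axes, each panel on its own scale) in every replicate of wild-type and Mll-AF9 HSC and GMP (points; bars are group means; 5, 5, 5 and 4 replicates). For mitosis genes Mll-AF9 GMP replicates lie close together (8.49 to 8.70), while Mll-AF9 HSC replicates spread (6.60 to 8.16). For interferon-induced genes Mll-AF9 GMP spread more (6.15 to 6.61) than Mll-AF9 HSC (7.43 to 7.63). Late neutrophil genes in Mll-AF9 HSC run from 4.47 to 7.28, across the Mll-AF9 GMP range.

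Genes of energy metabolism and protein export were called more often in GMP than in HSC. Of 25 oxidative phosphorylation subunits 15 were higher in GMP, against 17.3% of all genes, and none lower (median 0.67). When HSC replicate 5 was left out, 1 was higher in HSC. Without HSC replicate 2, 3 were higher in HSC. Sdhd and Sdhb, of succinate dehydrogenase, differed by 1.76 ± 0.33 (SE, adjusted p = 0.00127) and 1.61 ± 0.17 (SE, adjusted p = 9.87e-06), Ndufa9, of complex I, by 1.50 ± 0.22 (SE, adjusted p = 1.82e-04), and Cycs, cytochrome c, by 1.05 ± 0.18 (SE, adjusted p = 5.04e-04). Of 25 genes of glycolysis and the citrate cycle 13 were higher in GMP and 5 in HSC, and isoenzymes of the same step differed in opposite directions. Hk3, a hexokinase of myeloid cells, was higher in GMP (2.01 ± 0.24 SE, adjusted p = 2.73e-05), and Hk2 in HSC (-0.90 ± 0.23 SE, adjusted p = 0.00897). Pfkp, a phosphofructokinase, was higher in GMP (1.47 ± 0.21 SE, adjusted p = 1.55e-04), and its counterparts Pfkl (-2.33 ± 0.37 SE, adjusted p = 3.41e-04) and Pfkm (-2.15 ± 0.23 SE, adjusted p = 9.87e-06) in HSC. Aldoc, the brain-type aldolase, was higher in HSC (-2.68 ± 0.41 SE, at least 4.63-fold, adjusted p = 2.44e-04). Idh1, which makes NADPH, differed by 1.97 ± 0.21 (SE, adjusted p = 1.10e-05). Single omissions gave 9 to 14 members higher in GMP, the lowest without GMP replicate 3.

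Of 27 genes of the endoplasmic reticulum and secretory pathway 17 were higher in GMP and none lower (median 0.78). Sdf2l1, a chaperone cofactor, measured 7.15 in GMP and 5.20 in HSC (1.95 ± 0.27 SE, adjusted p = 1.10e-04), Xbp1, the transcription factor of the unfolded protein response, differed by 1.52 ± 0.21 (SE, adjusted p = 9.96e-05), and Hyou1, a chaperone, by 1.36 ± 0.25 (SE, adjusted p = 8.62e-04). Hspa5, the chaperone BiP, measured 12.41 in GMP and 12.25 in HSC (adjusted p = 0.428), and its other probe sets were higher in GMP by 0.94 and 1.04. Of 18 lysosome genes 10 were higher in GMP and 2 in HSC: Ctsh, cathepsin H, differed by 3.83 ± 0.27 (SE, adjusted p = 2.67e-07) and Hexa, a hexosaminidase subunit, by 1.08 ± 0.15 (SE, adjusted p = 9.70e-05), while Ctsl, cathepsin L, was lower (-1.16 ± 0.22 SE, adjusted p = 0.00128). Ribosome biogenesis genes were called about as often as all genes, 5 of 25 higher in GMP and 2 in HSC (median 0.19). Leaving out GMP replicate 2 or 4 or HSC replicate 4 gave 0 higher in HSC. When GMP replicate 1 or 3 or HSC replicate 3 was left out, 1 was higher in HSC. Without HSC replicate 2 or 5, 4 were higher in HSC. Npm1, nucleophosmin, differed by 0.56 ± 0.10 (SE, adjusted p = 7.61e-04), and Ncl, nucleolin, measured 11.06 in GMP and 11.28 in HSC (adjusted p = 0.413). Of 13 Myc network genes 2 were higher in GMP and 4 in HSC, against 17.3% and 11.8% of all genes. Leaving out GMP replicate 1 or 3 gave 1 higher in GMP. Myc measured 8.49 in GMP and 8.36 in HSC (adjusted p = 0.69). Myb, a driver of progenitor growth and of MLL leukaemia, measured 11.71 in GMP and 12.14 in HSC (-0.43 ± 0.10 SE, adjusted p = 0.0058).

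Imprinted and signalling genes were called mostly in HSC. Of 19 imprinted genes 8 were higher in HSC and 1 in GMP. Ndn, necdin, a growth suppressor, measured 5.64, 5.60, 5.87 and 5.22 in GMP and 7.14, 9.58, 8.67, 8.29 and 8.10 in HSC (-2.78 ± 0.38 SE, adjusted p = 8.70e-05), Sgce, a sarcoglycan from an imprinted cluster, differed by -2.48 ± 0.32 (SE, adjusted p = 5.42e-05), and Grb10, a growth factor receptor adaptor, by -1.28 ± 0.33 (SE, adjusted p = 0.00881). Of 24 TGF-beta, Notch and Wnt genes 10 were higher in HSC and 1 in GMP. Tgfbr3, the type III TGF-beta receptor, was at least 9.11-fold higher in HSC (adjusted p = 3.21e-06), and Tgfbr2 and Bmpr2, signalling receptors, differed by -2.13 ± 0.29 (SE, adjusted p = 8.83e-05) and -2.14 ± 0.30 (SE, adjusted p = 1.05e-04). When GMP replicate 1, 2 or 3 or HSC replicate 1, 2 or 5 was left out, 0 were higher in GMP.

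Regulators of chromatin differed member by member. Tet1, which oxidises methylcytosine, measured 3.85, 5.42, 4.05 and 4.90 in GMP and 7.07, 7.63, 7.78, 7.58 and 6.76 in HSC (-2.81 ± 0.33 SE, at least 5.56-fold, adjusted p = 2.56e-05). The DNA methyltransferase Dnmt3b was higher in HSC (-0.97 ± 0.19 SE, adjusted p = 0.00157). Of 15 Polycomb genes 6 were higher in HSC and 1 in GMP. Without GMP replicate 1, 3 or 4 or HSC replicate 4, 0 were higher in GMP. The mean of all probe sets of a gene gave 1 higher in HSC and 2 in GMP. The largest difference was that of Suz12, a core subunit of the complex that methylates histone H3 lysine 27 (-1.72 ± 0.27 SE, adjusted p = 3.18e-04). Its catalytic subunits went opposite ways, Ezh2 higher in GMP (0.84 ± 0.25 SE, adjusted p = 0.0223) and Ezh1 in HSC (-0.94 ± 0.26 SE, adjusted p = 0.0137), and Bmi1 was not called (-0.17). Ezh2 was not called without GMP replicate 1, 3 or 4 or HSC replicate 4 (limma adjusted p = 0.0514 to 0.073).

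Genes of cell death and adhesion were called in both directions. Of the Bcl2 family, Bid (8.63, 8.23, 8.47 and 8.39 in GMP and 6.62, 5.12, 5.76, 5.96 and 5.58 in HSC, 2.62 ± 0.27 SE, adjusted p = 9.0e-06) and Bak1 (2.25 ± 0.20 SE, at least 3.5-fold, adjusted p = 2.21e-06), which promote death at mitochondria, were higher in GMP. Bcl2l11, the killer protein BIM, measured 6.25, 6.43, 6.37 and 6.66 in GMP and 9.61, 8.67, 9.40, 9.51 and 8.53 in HSC (-2.72 ± 0.26 SE, adjusted p = 3.68e-06), though its other probe sets above background gave -0.32 and 0.39, neither called, and Mcl1, a survival protein, differed by -1.12 ± 0.15 (SE, adjusted p = 8.83e-05). Bcl2 (7.90 in GMP and 7.82 in HSC) and Bcl2l1 (6.87 in GMP and 7.04 in HSC) were not called, and other Bcl2 probe sets above background ran from -0.84 to 1.33. Of 24 adhesion genes 7 were higher in GMP and 5 in HSC, against 17.3% and 11.8% of all genes. Higher in GMP was Ncam1, a neural cell adhesion molecule (8.33, 8.44, 8.58 and 8.26 in GMP and 5.24, 5.94, 4.82, 4.08 and 6.32 in HSC, 3.12 ± 0.37 SE, adjusted p = 2.78e-05), and higher in HSC was Alcam (-3.34 ± 0.33 SE, adjusted p = 6.22e-06). Itga6, a laminin receptor subunit, was higher in HSC (-1.30 ± 0.22 SE, adjusted p = 5.59e-04), and Itgam, the Mac-1 subunit of myeloid cells, was below background in both (4.13 in GMP and 3.12 in HSC). Ccl9, a chemokine of myeloid cells, was higher in GMP (1.67 ± 0.20 SE, adjusted p = 3.47e-05), and Cxcr4, which holds cells in marrow, measured 7.22 in GMP and 6.89 in HSC (adjusted p = 0.456).

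Genes of other lineages were higher in HSC in most of the cases called. Of 14 erythroid genes 7 were higher in HSC and none in GMP (median -1.32). Leaving out HSC replicate 1 or 2 gave 1 higher in GMP. Car2, a carbonic anhydrase, measured 6.84, 6.45, 6.42 and 7.23 in GMP and 11.36, 10.21, 11.20, 10.68 and 10.23 in HSC (-4.0 ± 0.27 SE, adjusted p = 2.46e-07), and Gata1, the erythroid and megakaryocyte factor, 4.79, 4.89, 4.94 and 4.50 in GMP and 8.30, 7.03, 7.28, 6.93 and 6.92 in HSC (-2.51 ± 0.28 SE, adjusted p = 1.76e-05). Klf1, a factor of red cell genes, measured 5.03, 5.74, 5.61 and 5.64 in GMP and 8.91, 7.63, 7.46, 6.04 and 6.98 in HSC, highest in HSC replicate 1 (-1.90 ± 0.43 SE, adjusted p = 0.00409). Car1 differed by -3.39 ± 0.61 (SE, adjusted p = 8.13e-04), and Epor, the erythropoietin receptor, was not called (5.25 in GMP and 5.35 in HSC). Hba-a1, alpha globin, was below background in all 9 replicates. The mean of the 14 genes ran from 5.93 to 7.58 in HSC, highest in replicate 1, and from 4.92 to 5.36 in GMP. The GATA motif AGATAA was in 2 of 10 promoters of the list, against 10.3% of all. Of 15 megakaryocyte genes 6 were higher in HSC, with Itga2b, integrin alpha IIb, at -1.29 ± 0.28 (SE, adjusted p = 0.00305) and Gfi1b, a repressor, at -2.20 ± 0.28 (SE, at least 4.19-fold, adjusted p = 5.69e-05). Pf4, platelet factor 4, was not called (7.49 in GMP and 8.15 in HSC). Of 19 early lymphoid genes 9 were higher in HSC and 1 in GMP. When HSC replicate 2 was left out, 2 were higher in GMP. Dntt, the terminal transferase of lymphoid progenitors, measured 5.70, 5.18, 5.84 and 5.64 in GMP and 11.53, 11.98, 11.05, 10.10 and 10.01 in HSC and was 40.7-fold higher in HSC (-5.35 ± 0.36 SE, adjusted p = 2.22e-07). Lsp1, a leukocyte actin-binding protein, differed by -2.83 ± 0.30 (SE, adjusted p = 1.12e-05). Il7r (3.80 in GMP and 3.47 in HSC) and Rag1 (3.04 in GMP and 3.19 in HSC) were below background in both groups. Vpreb1, of the pre-B cell receptor, was higher in GMP but dim (5.07, 4.84, 5.04 and 5.23 in GMP and 3.39, 4.21, 3.02, 3.82 and 4.27 in HSC, at least 1.35-fold, adjusted p = 0.00122).

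Markers of mature cells that a sort could carry over were below background in part. Of 10 mature B cell genes 8 lay below background in both groups and 1, Cd79b, was higher in GMP (0.92 ± 0.26 SE, adjusted p = 0.0176). Cd79b was not called without GMP replicate 3 or 4 (limma adjusted p = 0.0512 to 0.0558). Without GMP replicate 3 or 4, 0 were higher in GMP. Leaving out HSC replicate 2 gave 3 higher in GMP. When HSC replicate 5 was left out, 2 were higher in HSC. Ms4a1 (3.39 in GMP and 3.37 in HSC) and Pax5 (4.03 in GMP and 3.98 in HSC) were below background, and the mean of the list was 4.02 to 4.11 in GMP and 3.64 to 4.26 in HSC. Of 12 T and NK cell genes 3 were higher in GMP, against 17.3% of all genes, and 1 was with the RNA quality covariate. The 3 were Nkg7, which is also on the primary granule list (2.22 ± 0.21 SE, adjusted p = 3.68e-06), Cd8a (0.96 ± 0.21 SE, adjusted p = 0.00313) and Cd3d, below background (4.42 in GMP and 3.66 in HSC). Cd3e measured 4.93 in GMP and 4.69 in HSC (adjusted p = 0.451), Cd3g 2.72 in GMP and 2.85 in HSC, and the list mean was 4.59 to 4.81 in GMP and 4.23 to 4.43 in HSC. Of 14 stroma and endothelium genes limma called none (median 0.06), and 3 had an unadjusted p below 0.05. Without HSC replicate 1, 1 was higher in GMP. Leaving out HSC replicate 2 gave 2 higher in GMP. When HSC replicate 3, 4 or 5 was left out, 1 was higher in HSC. Cdh5 (3.48 in GMP and 3.42 in HSC), Col1a1 (3.53 in GMP and 3.30 in HSC) and Col3a1 (2.81 in GMP and 2.68 in HSC) were below background. Of the 14, 7 were above background in at least 1 group, with differences from -1.39 for Cxcl12, the ligand of Cxcr4 (3.73 in GMP and 5.11 in HSC, adjusted p = 0.107), to 1.6 for Vcam1, an adhesion molecule (6.23 in GMP and 4.63 in HSC, adjusted p = 0.121). With the probe set of largest variance 3 of the 14 were higher in HSC. Jchain, the joining chain of secreted antibody, measured 3.45, 3.09, 4.12 and 3.54 in GMP and 8.49, 9.92, 8.44, 9.79 and 2.82 in HSC (-4.35 ± 1.07 SE, at least 9.69-fold, adjusted p = 0.0072): HSC replicate 5 was as low as GMP, the other 4 HSC replicates were high, and the difference was -5.61 without replicate 5. Mzb1, another plasma cell gene, measured 4.46 in GMP and 5.05 in HSC (adjusted p = 0.11), and the mean of the 7 plasma cell genes was 4.70 to 4.79 in GMP and 4.88 to 5.94 in HSC. The part of carried-over cells in the late neutrophil, erythroid and Jchain values of HSC was not tested.

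**Figure D4:**
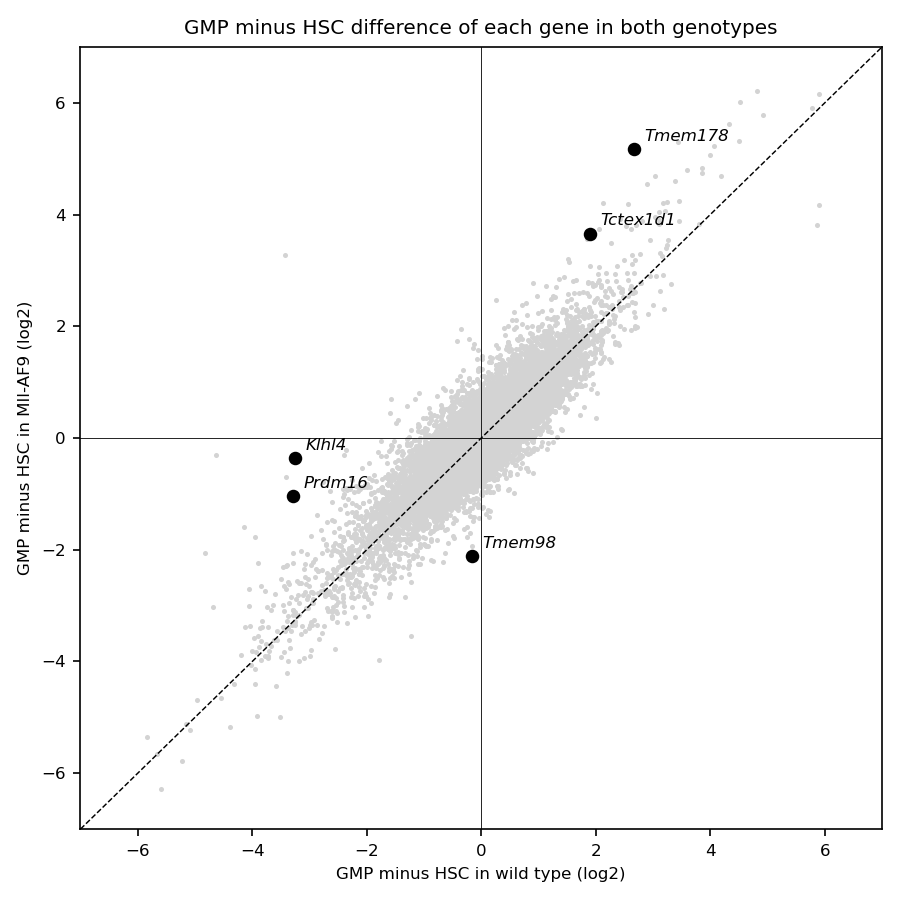
GMP minus HSC difference of each of 18193 genes (grey points) in wild-type mice (horizontal axis) and in Mll-AF9 mice (vertical axis), both log2. The dashed line marks equal differences, and black points are the 5 genes whose differences differed between genotypes, of which Tmem98, at -0.16 in wild type and -2.12 in Mll-AF9, lies below the line.

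The same step was compared in wild-type mice, to ask whether the GMP to HSC difference itself differs when the fusion is present. Wild-type GMP and HSC differed at 4052 genes higher in GMP (22.3%) and 2447 higher in HSC (13.5%). The 3' minus 5' control difference was 4.7 and 4.1 in wild-type GMP replicates 1 and 2 and 2.6 to 3.2 in the others. In wild-type HSC it was 3.1 to 4.4. Replicates correlated with each other at 0.912 to 0.99 in wild-type GMP and 0.888 to 0.969 in wild-type HSC. Of the Mll-AF9 calls 3905 (73.9%) were called the same way in wild type, which is 60.1% of the 6499 wild-type calls. Another 4 genes, Cdh1, Gm11696, Mid1 and Wdfy1, were called in opposite directions. Cdh1 was not called without GMP replicate 1, 2 or 3 or HSC replicate 2, 3 or 4 (limma adjusted p = 0.0548 to 0.1). Mid1 was not called without GMP replicate 1, 2, 3 or 4 or HSC replicate 1, 2 or 5 (limma adjusted p = 0.0782 to 0.102). Gm11696 was not called without GMP replicate 1, 3 or 4 or HSC replicate 2 or 3 (limma adjusted p = 0.0539 to 0.0992). Wdfy1 was not called without GMP replicate 1, 2 or 3 or HSC replicate 1, 2 or 4 (limma adjusted p = 0.0537 to 0.125). In the test of the difference between genotypes, fitted over all 4 groups, 4 genes had a higher difference in Mll-AF9 (0.0220%) and 1 a lower one (0.00550%). An unadjusted p below 0.05 was reached by 1336 genes (7.34%). The wild-type replicates held both Y-linked high and Y-linked low samples and the Mll-AF9 replicates none of the former. With the Y-linked level as a covariate 7 genes had a higher and 2 a lower difference. Tmem178, an endoplasmic reticulum protein that limits calcium signalling, measured 8.44, 6.63, 8.24 and 8.59 in Mll-AF9 GMP and 5.28 to 5.84 in wild-type GMP, with HSC of both genotypes below background. Its difference was 5.17 in Mll-AF9 and 2.67 in wild type, and the difference of the 2 was 2.50 ± 0.44 (SE, adjusted p = 0.0306). Tctex1d1, a dynein light chain relative, measured 5.90 to 6.80 in Mll-AF9 GMP and 3.92 to 5.21 in wild-type GMP, again with HSC below background (1.76 ± 0.31 SE, adjusted p = 0.0306). For both genes the GMP replicates of the genotypes did not overlap.

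Klhl4, a kelch-like protein, was measured at 4.95 to 6.76 in wild-type HSC and below background in Mll-AF9 HSC (2.06 to 3.61) and in GMP of both genotypes, so that its difference was -3.25 in wild type and -0.36 in Mll-AF9 (2.89 ± 0.38 SE, adjusted p = 0.0016). Prdm16, a zinc-finger factor that maintains stem cells, measured 5.58, 6.55, 6.88, 5.79 and 6.42 in Mll-AF9 HSC and 5.53, 5.11, 4.93 and 5.26 in Mll-AF9 GMP, a difference of -1.04 ± 0.27 (SE, adjusted p = 0.011). In wild type it measured 6.48 to 8.03 in HSC and 3.57 to 4.21, below background, in GMP (-3.28 ± 0.26, SE). The difference of the 2 was 2.24 ± 0.39 (SE, adjusted p = 0.0306) and rests in part on signal below background. Over the alternatives it ran from 0.86 to 2.41. In Mll-AF9 the other Prdm16 probe sets above background gave 0.46 and 0.45, neither called. Tmem98, a membrane protein, measured 6.67 to 7.63 in Mll-AF9 HSC and 4.79 to 5.20 in Mll-AF9 GMP, and 5.95 to 7.38 and 6.19 to 6.78 in the wild-type groups (-1.95 ± 0.34 SE, adjusted p = 0.0306). These calls are few and move with single arrays. The count of 4 was 1 without wild-type GMP replicate 1, 4 or 5, wild-type HSC replicate 1 or 2, or Mll-AF9 GMP replicate 1 or 4. It was 2 without wild-type GMP replicate 2 or 3, Mll-AF9 GMP replicate 3 or Mll-AF9 HSC replicate 4. It was 7 without Mll-AF9 HSC replicate 1, 9 without Mll-AF9 HSC replicate 5 and 11 without wild-type HSC replicate 5. The call of Klhl4 was kept in each of these omissions. Those of Prdm16 and Tmem178 were lost in 13 single omissions each, that of Tmem98 in 11 and that of Tctex1d1 in 10 (limma adjusted p = 0.0512 to 0.127). The count of 1 lower was 0 without wild-type GMP replicate 1, 3, 4 or 5, wild-type HSC replicate 1 or 2, Mll-AF9 GMP replicate 1, 3 or 4, or Mll-AF9 HSC replicate 3 or 4, and 2 or 3 without Mll-AF9 HSC replicate 1 or 5 or wild-type HSC replicate 5. Mitosis genes had a median of 1.43 in Mll-AF9 and 0.55 in wild type, with 18 and 7 of 25 higher in GMP. No mitosis gene was called in the test of the difference, and 6 had an unadjusted p below 0.05. HoxA genes had medians of -0.50 and -0.39, stem cell transcription factors -1.77 and -1.71, and primary granule genes 2.74 and 2.6. By the same limma test 3 of 9, 3 of 27 and 5 of 16 of these had an unadjusted p below 0.05. Of them 1, 2 and 5 had a higher difference in Mll-AF9. So low a p was also reached by 7 of 23 further MLL-fusion targets and 5 of 19 early lymphoid genes, all higher in Mll-AF9. No interferon-induced gene reached it, and the share of all genes was 7.34%. Of these lists only the stem cell factors held a called gene, Prdm16.

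**Figure D5:**
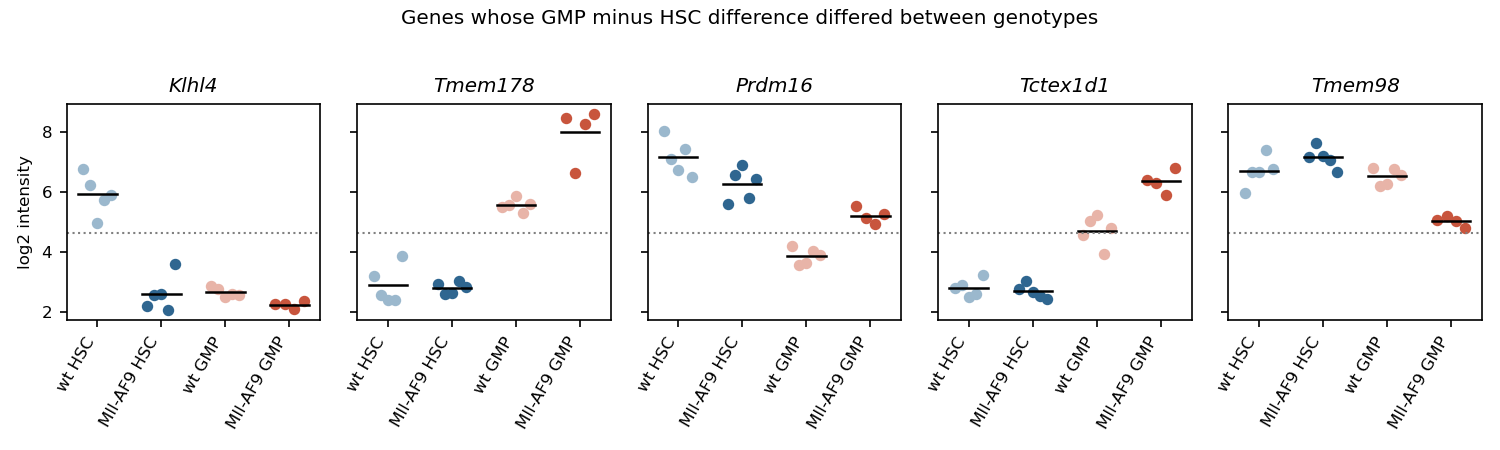
Log2 intensity (vertical axis, shared) of the 5 genes whose GMP minus HSC difference differed between genotypes, in each replicate of 4 groups (points; bars are means; wt, wild type). The dotted line is the background level of 4.62. The genotypes do not overlap for Tmem178 and Tctex1d1 in GMP, nor for Klhl4 in HSC, where Mll-AF9 replicates lie at 2.06 to 3.61.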

How the data were processed

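RNA of sorted bone marrow cells was measured on Affymetrix arrays with 45101 probe sets. The deposited table holds 1 intensity per probe set and array on a linear scale, made by the authors with RMA (version not stated), per the submitters' processing notes. Whether all arrays were normalised together is not given in the sources used here. Samples were grouped by their titles, and repeat runs of a replicate were averaged, which left 43 replicates of 51 arrays. Whether each replicate was a mouse of its own is not in the labels. The number of arrays limits the precision.

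Here log2 of the deposited intensities was taken. After 64 control probe sets were left out, 34945 probe sets carried 1 gene symbol and 10092 several or none. Symbols were updated through RefSeq for 34741. Each gene was read from its probe set of highest mean over all replicates, which left 18193 genes. limma 3.58.1 in R 4.3.3 (lmFit, eBayes with trend) was fitted to the 9 arrays, and to 19 arrays of both genotypes for the difference between genotypes, with Benjamini-Hochberg adjustment over all genes. Data were simulated for the 9 arrays with 1 spread per gene, the same in GMP and HSC and estimated from both genotypes. Of 18193 genes, 100 were changed by 1 and 100 by 2 on the log2 scale. The fit called 60 and 97 of these, with 9 false calls among the other genes. In the test between genotypes the counts were 39 and 93, with 15 false calls. Real HSC replicates were less alike than GMP replicates and 29.1% of genes were called, so these rates need not hold for the real arrays.

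The genes described are the 15 per direction with the largest called difference that lay above background and had no overlap, marked members of the gene lists and those with the largest called differences in their list, genes called between genotypes, and genes whose probe sets disagree or whose call is lost. The members and lists were chosen with earlier results of these data known. Alternatives covered the arrays fitted, single replicates left out, the filter on dim genes, the probe set of a gene, scaling, the variance model, the replicate number as a block, RNA quality, Y-linked level and the size of effect.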

Additional observations from a re-analysis of the deposited data

Results flagged for a closer look

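Single replicates stood apart from the rest of their group for 9 of 152 groups of values tested, of which 4 were among the 60 groups of the 30 genes with the largest differences. Chance gives about 1 in 20. Igsf6 measured 9.64 in GMP replicate 2 and 9.22 to 9.27 in the other GMP replicates. Trem3 measured 5.44 in HSC replicate 1 and 3.73 to 4.17 in the other HSC replicates. Cst7 measured 10.58 in GMP replicate 1 against 9.95 to 10.03 in the others, and Sgms2 7.37 in GMP replicate 3 against 8.11 to 8.25.

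Mean levels of lists stood apart in GMP replicate 2 for 3 lists. Myeloid cytokine receptors averaged 5.83 there and 6.23 to 6.26 in the other GMP replicates. Ribosome biogenesis genes averaged 8.51 against 8.64 to 8.65, and immediate-early genes 7.07 against 7.49 to 7.56. In HSC, CDK inhibitors and D cyclins averaged 7.46 in replicate 2 and 7.11 to 7.19 in the others, and haem synthesis genes 7.54 in replicate 1 and 6.86 to 7.01 in the others.

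The GMP minus HSC difference was tested between genotypes and differed at 5 genes. The Mll-AF9 difference minus the wild-type one was 2.89 for Klhl4, 2.50 for Tmem178, 2.24 for Prdm16, 1.76 for Tctex1d1 and -1.95 for Tmem98.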

How the results depend on the processing

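Leaving out single replicates gave 2249 to 3394 genes higher in GMP (3149 with all) and 1684 to 2423 higher in HSC (2138 with all), and 73.9 to 94.2% of the calls were kept the same way. A minimum of 2-fold beside the adjusted p left 1434 and 1324, and limma's treat with a minimum of 1 left 253 and 391. The covariate for RNA quality left 2133 and 1784 (64.6% of the calls kept). The share of calls higher in GMP, 59.6%, moved to 54.0% at most with another scaling. Replicate numbers shared by the titles showed no sign of pairing the samples. Same-numbered deviations correlated at -0.12, -0.08, 0.01 and 0.13 and different-numbered ones at -0.12 to 0.14, which cannot exclude pairing. The replicate block gave 3111 and 2238 genes. The mean of all probe sets of a gene turned 12 calls round and the probe set of largest variance 129; elsewhere 0 calls turned. Among named genes whose sign changed, whether or not they were called in both fits, were Zeb2 (0.58) and Fli1 (-0.88) with the mean. With the largest variance they included Fli1 (-2.11), Cenpe (-1.11), Top2a (-0.11) and Mlx (-0.29). Fli1 was not called in the main fit. The 3' minus 5' difference was 1.48 lower in GMP for Gapdh alone and 0.40 higher for beta-actin alone (exact permutation p = 0.00794, the smallest possible, and 0.143). Named genes that lost their call with the mean of all probe sets were Anxa1, Prdm16, Myb, Cdk6, Dot1l, Cenpe, Top2a, Mcm5, Mlx, Grb10, Ezh1, 4933404O12Rik and Wdfy1, and those that gained one were Ccr2, Runx1, Hoxa7, Jmjd1c, Hspa5 and B2m. The largest variance lost Myb, Ccnd2, Npm1, Cdk9, Stat4 and Wdfy1 and gained Ccr2, Psap, Runx1, Jmjd1c, Bcl2, Hspa5 and B2m. The RNA quality covariate took the count higher in GMP from 5 to 1 for late neutrophil genes and from 3 to 1 for interferon-induced and for T and NK cell genes.

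Between genotypes, 4 genes higher and 1 lower in Mll-AF9 became 8 and 2 with the replicate block, 1 and 2 without a trend, 23 and 6 with array weights, and 7 and 2 with the Y-linked covariate. Without HSC replicates 2 and 5 together they were 14 and 7. With RNA quality 7 were higher. All 8 groups in the fit gave 3 lower, and genes above background, the mean of all probe sets and log2 of the value plus 16 each gave 2 lower. Single omissions gave 1 to 11 higher and 0 to 3 lower. The cause of these moves was not tested.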

Other observations

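Families of genes that share a symbol stem were counted over all families with at least 15 members above background, a choice made after the data were seen. Above background 23.6% of genes were higher in GMP and 17.6% in HSC. Genes of the mitochondrial ribosome were higher in GMP: 22 of 29 Mrps genes of the small subunit (median 0.96, with 1 lower) and 32 of 47 Mrpl genes of the large subunit (median 0.91, with 0 lower). Among cytoplasmic ribosomal proteins 9 of 22 Rpl genes were higher in GMP with a median of 0.08, and of 26 Rps genes 4 were higher in GMP and 6 in HSC. Of 21 Cox genes 11 were higher in GMP, and of 19 Nup genes, which encode nuclear pore proteins, 7 were. Called in HSC were 7 of 15 Dusp genes, the dual-specificity phosphatases, 7 of 16 Kdm histone demethylases and 14 of 37 Trim genes, with 0, 0 and 2 higher in GMP.

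Genes above background were taken in their order along each chromosome, and several runs of neighbours were called the same way. Of the genes above background 23.6% were higher in GMP and 17.6% in HSC. How many runs these shares alone would give was not worked out, so the runs are a description only. Further runs of 5 genes are not named here. On chromosome 6 Gimap8, Gimap9, Gimap6, Gimap7, Gimap1 and Gimap5 were higher in HSC, and on chromosome 1 so were Stat4, Nab1, Nemp2, Mfsd6 and Inpp1. Higher in GMP were Atp6v0a1, Naglu, Hsd17b1, Coasy, Mlx and Psmc3ip on chromosome 11 and Ift22, 4933404O12Rik, Fis1, Cldn15, Znhit1 and Plod3 on chromosome 5. Stat4 was not called without GMP replicate 1, 2, 3 or 4 or HSC replicate 1, 3, 4 or 5 (limma adjusted p = 0.0531 to 0.118). 4933404O12Rik was not called without GMP replicate 1, 2, 3 or 4 or HSC replicate 3 or 4 (limma adjusted p = 0.0508 to 0.0972). Coasy was not called without GMP replicate 1 or 3 (limma adjusted p = 0.0594 to 0.071).

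Mid1, a ubiquitin ligase of microtubules, had the largest opposite differences of the genotypes and was singled out after its values were seen. It measured 9.60, 9.76, 10.22 and 9.67 in GMP and 5.07, 4.20, 10.50, 9.18 and 3.77 in HSC, so that HSC replicates 3 and 4 stood at the GMP level and replicates 1, 2 and 5 far below (3.27 ± 1.12 SE, adjusted p = 0.0409). In wild type its mean was 7.76 ± 1.72 (SD, n = 5) in GMP and 11.19 ± 1.25 (SD, n = 5) in HSC, and the difference between genotypes was 6.69 ± 1.45 (SE, adjusted p = 0.146), not called by limma. Ighm, the immunoglobulin mu chain, also named after its values were seen, had means of 10.44 in GMP and 11.15 in HSC in Mll-AF9 and 10.43 in GMP and 13.84 in HSC of wild type, and the difference between genotypes was 2.71 ± 0.64 (SE, adjusted p = 0.165), not called either.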
